A study of Mus musculus with 12 samples.

Results

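The mTOR complexes and the regulators through which AMPK controls them were followed, as a set of 10 genes, through every library of the series. The set holds the kinase Mtor, its partners Rptor, Rictor, Deptor and Akt1s1, the upstream regulators Tsc1, Tsc2 and Rheb, and the translation effectors Rps6kb1 and Eif4ebp2. They were chosen by name and matched by Ensembl identifier, and all 10 were found among the 46517 genes counted. Tissue was the ventromedial nucleus (VMN) of the mouse hypothalamus, taken from animals on chow that had fasted overnight. A virus supplied ribosomal protein L10 fused to GFP, so that ribosomes of SF1 cells could be pulled down with their RNA (translating ribosome affinity purification). Each of 6 pools of 6 animals gave an input library from dissected tissue and an output library from the pulled-down RNA.

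The DN animals carried, besides the tagged ribosomal protein, a virus for a dominant-negative form of the energy-sensing kinase AMPK, and the CTRL animals are recorded as lacking that mutant. The treatment text is the same for both groups and names the mutant virus, so what the CTRL animals received in its place is not known from the labels. Crossing virus with fraction gave 4 groups of 3 libraries, namely inputs and outputs of CTRL and of DN animals. The sources used here name no strain, age, promoter or Cre line, so what limits the tagged protein to SF1 cells is not known. Each library is a pool, so the spread between libraries is that between pools.

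As background, mTOR is a protein kinase that couples nutrient and growth factor supply to protein synthesis and cell growth. It acts in mTORC1, which contains the scaffold Raptor, and in mTORC2, which contains Rictor. The TSC complex switches off the small GTPase Rheb, the direct activator of mTORC1. AMPK restrains mTORC1 by phosphorylating TSC2 and Raptor, that is, at the protein level, which RNA counts do not measure. In the hypothalamus mTORC1 signalling is known for its part in the control of feeding and energy balance.

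Each library held between 34.6 and 55.5 M gene counts (M, 1e6 counts). Nuclear genes made up 8.54 to 11.3 M of them in inputs but 26.2 to 32.1 M in outputs. The labelled tissue and cells were present: of 6 VMN neuron markers, Nr5a1 (SF1) and Fezf1 among them, 6 passed the test as higher in outputs than in inputs in CTRL and 5 in DN. The marker that did not pass in DN was Nr5a1 itself (1.88, adjusted p = 0.0946 by edgeR), with 4.68 to 6.83 CPM in inputs and 11.0 to 31.2 CPM in outputs. Their summed level was 415 to 466 normalized counts per 1e6 counts (CPM) in CTRL inputs and 1139 to 1339 CPM in CTRL outputs, and 410.0 to 584 and 1447 to 1926 CPM in DN. The sum of 6 astrocyte markers was 2580 to 3141 CPM in CTRL inputs, 2622 to 3009 in DN inputs, 1486 to 1685 in CTRL outputs and 985 to 1105 in DN outputs. None of these 12 markers was at 0 in any group. The outputs thus still held glial RNA. VMN and astrocyte sums did not overlap between DN and CTRL outputs. The astrocyte sum is mostly Slc1a2, with means of 1422 CPM in CTRL and 921 CPM in DN outputs, whereas of the 5 astrocyte markers tested 3 were positive and 2 negative, with a median of 0.07. In bulk RNA, fewer cells of a type and less RNA per cell cannot be told apart.

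Levels of different genes were compared per kilobase of annotated exon. Deptor, an inhibitory partner of mTOR, stood highest of the 10 in CTRL inputs (9.25 ± 1.80 CPM per kb, SD, n = 3), CTRL outputs (12.9 ± 1.59) and DN outputs (13.8 ± 2.70). In DN inputs Rheb came first at 6.89 ± 1.32 CPM per kb and Deptor followed at 5.79 ± 0.474, with overlapping libraries. In CTRL outputs Deptor lay above 90.0% of the 13438 protein-coding genes tested, whose median was 1.49 CPM per kb. The mTOR kinase itself had 4.60 ± 0.744 CPM per kb in CTRL inputs and 2.57 ± 0.727 in CTRL outputs. Rptor and Rictor, the scaffolds that define mTORC1 and mTORC2, were close to each other in CTRL outputs, at 2.70 ± 1.23 and 2.56 ± 0.337 CPM per kb. Tsc2, the subunit with the GTPase-activating domain, was lower at 0.988 ± 0.629 CPM per kb, and its partner Tsc1, which stabilises it, had 3.29 ± 0.721. Akt1s1 (PRAS40), an mTORC1 inhibitor phosphorylated by AKT, was last in all 4 groups.

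**Figure D1:**
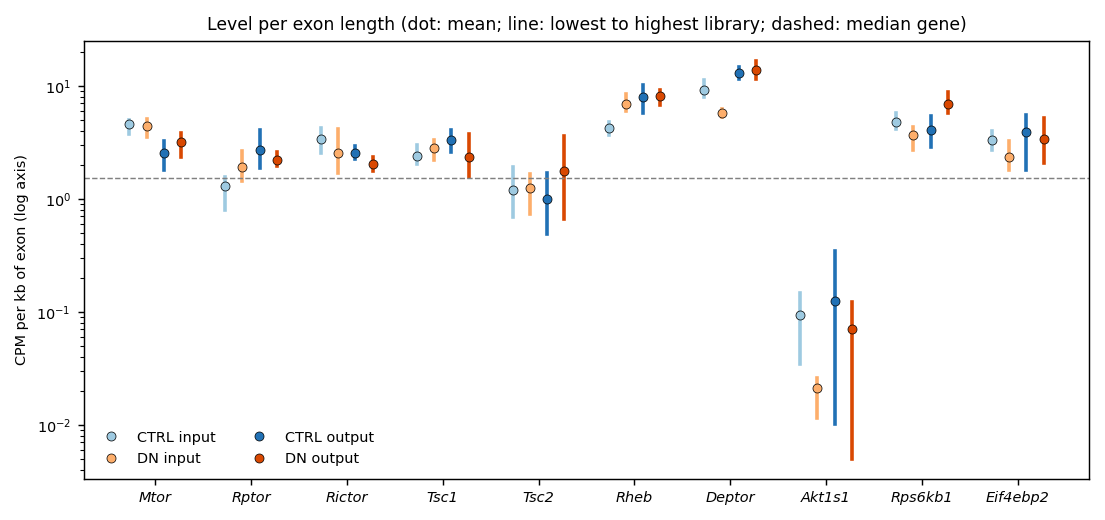
Level of each member per kilobase of exon on a log axis, with a dot for the mean of 3 libraries and a line from the lowest to the highest library of each group. The dashed line marks the median protein-coding gene, and a library at 0 is drawn at 0.005. Deptor and Rheb stand highest in every group but CTRL inputs, where Rps6kb1 and Mtor lie above Rheb, and Akt1s1 lies far below the other 9 members.

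Within a gene, the 4 groups mostly overlapped. When the groups were ordered by mean level, every neighbouring pair overlapped for 7 of the 10 members. The share of all genes with such an order was not computed, so this count is a description and no result about the members as a set. Gaps between neighbours were found for Rheb, Rps6kb1 and Deptor. For Rheb only CTRL inputs stood apart, below the others, and for Rps6kb1 only DN outputs, above the others. That gap of Rps6kb1 was very narrow, from its highest CTRL input (49.41 CPM) to its lowest DN output (49.56 CPM). For Deptor, DN inputs were lowest, CTRL inputs next and both output groups higher, and the output groups overlapped. The highest CTRL input of Deptor (100.4 CPM) lay only narrowly below its lowest output (101.2 CPM).

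**Figure D2:**
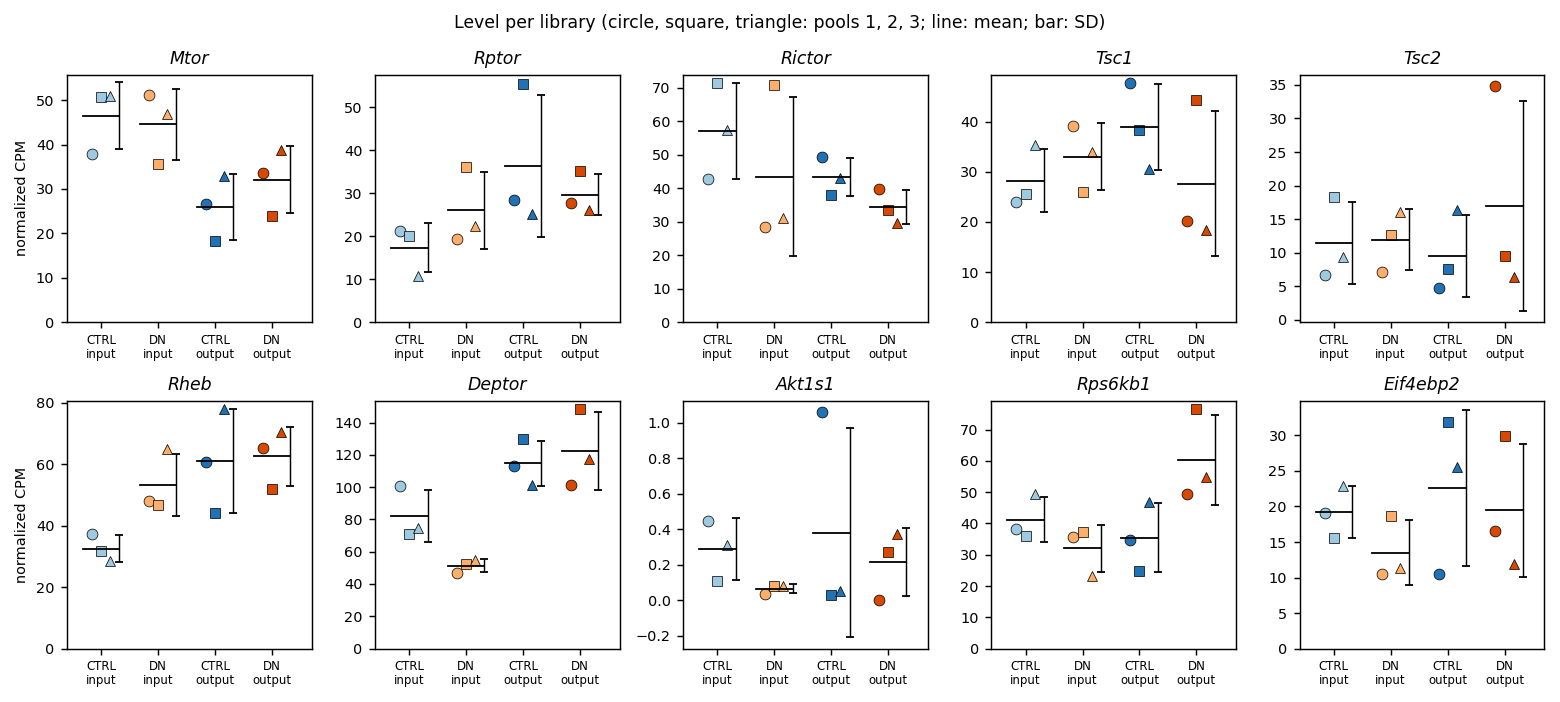
Normalized CPM of the 10 members in each of the 12 libraries, by group, with the mean as a line and the SD as a bar. Deptor is lowest in DN inputs, and its CTRL inputs (up to 100.4 CPM) lie only narrowly below the outputs (from 101.2 CPM). Rps6kb1 is highest in the 3 DN outputs (from 49.56 CPM), very narrowly above its highest CTRL input (49.41 CPM). Most other members overlap between groups.

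The first comparison asked whether ribosome-bound RNA of the mTOR complexes differed between DN and CTRL outputs. No member passed the test. Rps6kb1, which encodes the S6 kinase that mTORC1 activates, was the member with the smallest p. Of the 10 members, all of which passed the filter on low counts, 0 had an adjusted p below 0.05 by edgeR's quasi-likelihood test, against 0% of the 13333 genes tested. DESeq2 called 0 members, against 58 genes (0.462%). At an unadjusted p below 0.05 by edgeR there was 1 member, against 5.41% of genes. At such a background 1 of 10 is no result about the members as a set. The median log2 fold change of the members was -0.09, beside 0.01 over all genes tested, with 5 members positive and 5 negative.

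Rps6kb1 (ENSMUSG00000020516, GRCm38 chromosome 11, 86498871 to 86544805) had 34.7, 24.8 and 46.8 CPM in the CTRL outputs of pools 1, 2 and 3. In the DN outputs it had 49.6, 76.6 and 54.7 CPM. All 3 DN outputs lay above all 3 CTRL outputs, as was the case in either direction for 11.0% of genes, and Rps6kb1 was the only 1 of the 10 members of which this was true. The log2 fold change was 0.77 ± 0.30 (SE; 95% interval 0.10 to 1.43), with an unadjusted p of 0.0276 and adjusted p = 0.911 by edgeR. Over the alternatives the adjusted p was 0.412 to 1. Of the marker sums, those of VMN neurons and of astrocytes (through Slc1a2) also separated DN from CTRL outputs. So did the sum of 5 pan-neuronal markers, mostly Snap25 (6049 to 6459 CPM in CTRL, 6839 to 7650 in DN). The sum of 3 GABA neuron markers, mostly Gad2, did too (243 to 308 and 197 to 222 CPM). Of the 6 VMN markers 5 were positive, of the pan-neuronal ones 2 of 5 and of the GABA ones 1 of 3, and their part in the Rps6kb1 difference was not tested. Of the exon bases of Rps6kb1, 1.79% are shared with Rnft1 on the opposite strand.

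Deptor, by contrast, differed little between the outputs. It had 113, 129.6 and 101.5 CPM in CTRL and 101.2, 148 and 118 CPM in DN outputs, which overlapped (0.09 ± 0.20, interval -0.35 to 0.54). Rheb had 60.6, 44.2 and 78.1 CPM in CTRL and 65.3, 51.8 and 70.4 in DN outputs (0.03 ± 0.26, interval -0.54 to 0.61). These are the narrowest intervals among the members, and each excludes a change beyond 1 on the log2 scale in either direction.

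For the kinase, Mtor (ENSMUSG00000028991, chromosome 4, 148448611 to 148557683) had 26.6, 18.3 and 32.9 CPM in CTRL outputs. In DN outputs it had 33.7, 23.9 and 38.8 CPM, and the groups overlapped (0.31 ± 0.35, interval -0.46 to 1.07). The scaffolds Rptor (-0.29 ± 0.36, interval -1.08 to 0.50) and Rictor (-0.34 ± 0.27, interval -0.94 to 0.26) had lower means in DN and overlapping libraries. Rptor (ENSMUSG00000025583, chromosome 11, 119602905 to 119899576) ranged from 25.2 to 55.4 CPM in CTRL outputs and from 26.2 to 35.1 in DN outputs, and CTRL pool 2 alone held its highest value. Without that pool the log2 fold change of Rptor was 0.15. Rictor (ENSMUSG00000050310, chromosome 15, 6708379 to 6800401) had 49.3, 37.8 and 43.0 CPM in CTRL outputs and 39.9, 33.6 and 29.8 CPM in DN outputs, so that a single DN library reached the CTRL range.

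Of the TSC genes, Tsc2 varied most within groups. This gene (ENSMUSG00000002496, chromosome 17, 24595816 to 24632630) had 4.68, 7.52 and 16.3 CPM in CTRL outputs and 34.9, 9.54 and 6.38 CPM in DN outputs. DN pool 1 stood above the other 11 libraries, and the log2 fold change of 0.83 ± 0.70 became -0.25 without it. Tsc2 had the largest SD of log2 (CPM + 1) over the 12 libraries of all members (0.75). The added 1 CPM compresses low levels, such as those of Akt1s1 (0.30), so this ranking holds for that scale. It shares 693 exon bases (7.20%) with Pkd1 on the opposite strand, and whether counting used strand is not given in the sources used here. Tsc1 (ENSMUSG00000026812, chromosome 2, 28641228 to 28691167) had 47.7, 38.4 and 30.6 CPM in CTRL and 20.1, 44.3 and 18.5 in DN outputs (-0.50 ± 0.39, interval -1.34 to 0.35). In that gene DN pool 2 lay within the CTRL range and the other DN pools below it.

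Eif4ebp2 (ENSMUSG00000020091, chromosome 10, 61428491 to 61452661), a translation repressor that binds the cap-binding protein eIF4E until mTORC1 phosphorylates it, ranged from 10.4 to 31.8 CPM in CTRL and from 11.9 to 29.9 in DN outputs. Its log2 fold change was -0.22 ± 0.50 (interval -1.31 to 0.87). Akt1s1 (ENSMUSG00000011096, chromosome 7, 44848991 to 44855421) had 74, 2 and 3 counts in the CTRL outputs and 0, 18 and 27 in the DN outputs. One CTRL library thus held nearly all of its reads in that group, and the 0 allows up to 3 counts, or 0.0444 CPM. With an interval of -4.92 to 3.26 on the log2 scale, no difference in Akt1s1 was detectable at this depth.

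**Figure D3:**
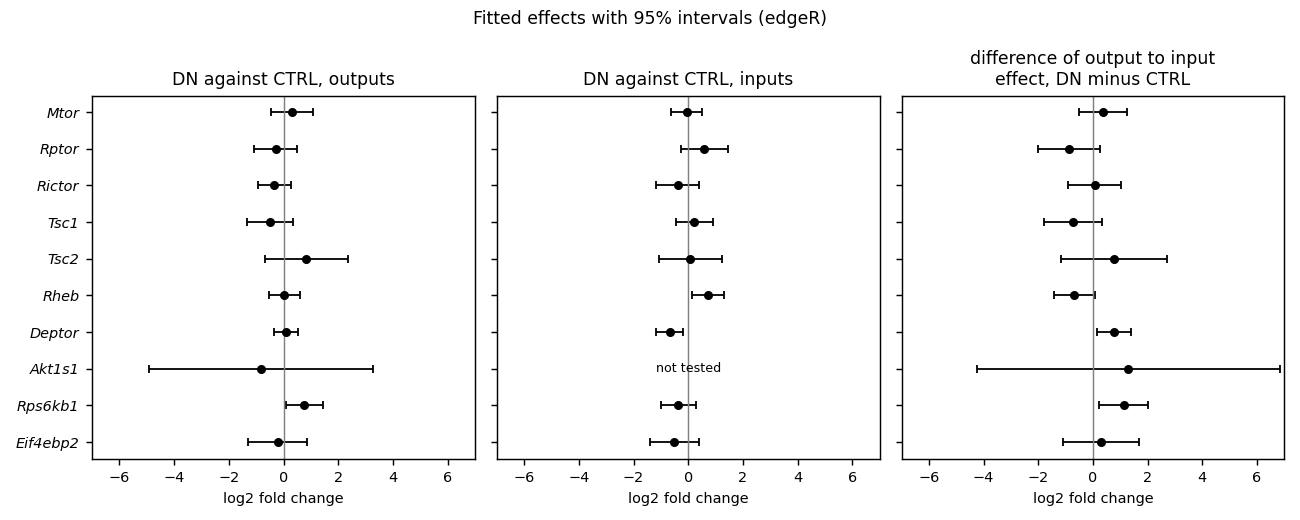
Fitted log2 fold changes of the members with 95% intervals, for DN against CTRL in outputs, the same in inputs, and the difference of the output to input effect between DN and CTRL. The intervals of Rps6kb1 in outputs, of Rheb and Deptor in inputs, and of Deptor and Rps6kb1 in the difference lie off 0 before adjustment.

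The same contrast was then read in the inputs, that is, in the tissue before the pull-down. Deptor was lower and Rheb higher in each DN input than in each CTRL input, but neither passed the adjusted test. Of the 9 members tested (Akt1s1 did not pass the filter) 0 had an adjusted p below 0.05, against 0.00756% of 13221 genes. DESeq2 also called 0 members, against 0.0153% of genes. At an unadjusted p below 0.05 there were 2 members, against 4.46% of genes, and the same 2 were those whose groups did not overlap, against 10.5%. The median log2 fold change of the members was -0.06, beside 0.03 over all genes tested.

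Deptor (ENSMUSG00000022419, chromosome 15, 55112317 to 55259271) had 100.4, 70.9 and 74.8 CPM in CTRL inputs and 46.8, 52.3 and 55.0 CPM in DN inputs. The lowest CTRL input lay above the highest DN input. The log2 fold change was -0.67 ± 0.23 (interval -1.17 to -0.18), with an unadjusted p of 0.0115 and adjusted p = 0.997 by edgeR (0.410 to 1 over the alternatives). Rheb (ENSMUSG00000028945, chromosome 5, 24802823 to 24842624), the GTPase that switches mTORC1 on, had 37.2, 31.8 and 28.5 CPM in CTRL inputs and 48.0, 46.7 and 65.0 in DN inputs. Its log2 fold change was 0.71 ± 0.26 (interval 0.14 to 1.29), with an unadjusted p of 0.0194 and adjusted p = 0.997 by edgeR (0.492 to 1 over the alternatives). The sum of 5 pan-neuronal markers was 3426 to 4065 CPM in CTRL inputs and 4273 to 4526 CPM in DN inputs, also without overlap. That sum is mostly Snap25, with means of 2760 CPM in CTRL and 3401 CPM in DN inputs. Of these 5 markers 4 were positive and 1 negative, and 0 passed. Of the 6 VMN markers, 6 had higher fitted values in DN inputs (median 0.47, beside 0.03 over all genes tested), and 0 passed. Their sums overlapped, at 415 to 466 CPM in CTRL inputs and 410.0 to 584 CPM in DN inputs. The part of these markers in the differences of Deptor and Rheb was not tested.

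The other 7 members tested overlapped between the input groups. Mtor had 37.8, 50.7 and 50.9 CPM in CTRL inputs and 51.1, 35.6 and 46.9 in DN inputs (-0.06 ± 0.26, interval -0.62 to 0.51). Rptor was at 0.59 ± 0.40, Tsc1 at 0.23 ± 0.31 and Tsc2 at 0.07 ± 0.53 on the log2 scale. Rictor was at -0.39 ± 0.36, Rps6kb1 at -0.36 ± 0.29 and Eif4ebp2 at -0.51 ± 0.41. Rictor in DN inputs had 28.4, 70.9 and 31.0 CPM, so that pool 2 held more than the sum of the other two. Akt1s1 had 13, 3 and 7 counts in CTRL inputs and 1, 2 and 2 in DN inputs, too few to test, although in CPM the DN inputs (0.0354 to 0.0804) lay below the CTRL inputs (0.107 to 0.449).

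The pull-down was described next by the ratio of output to input within each pool, as log2 of CPM + 1. These ratios are relative to the median gene, which the scaling places near 0 (from 0.00 in 4 pools to -0.0045). Mtor was below 0 in all 6 pools, at -0.49, -1.43 and -0.61 in CTRL and -0.59, -0.56 and -0.27 in DN. Of all genes, 7.64% were below 0 in every pool. Deptor was above 0 in all 6, at 0.17, 0.86 and 0.44 in CTRL and 1.10, 1.49 and 1.08 in DN, and so was Rheb, at 0.69, 0.46 and 1.42 in CTRL and 0.44, 0.15 and 0.11 in DN. Of all genes, 8.28% were above 0 in every pool. With CPM not corrected for composition (without TMM factors) the median gene shifted by 1.10, and the mean ratio of each of the 10 members was then positive in both groups. The sign changed for Mtor and Rictor in both groups, for Tsc1 in DN, and for Tsc2 and Rps6kb1 in CTRL. On that scale Mtor averaged 0.62 in CTRL and 1.09 in DN, and Rps6kb1 averaged 1.22 and 2.45. With CPM of nuclear genes alone the median gene shifted by -0.13, and Rheb averaged 0.69 in CTRL and 0.03 in DN. The sign then changed for Tsc2 in DN (-0.0165) and, in CTRL, for Akt1s1 (-0.098) and Eif4ebp2 (-0.067).

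**Figure D4:**
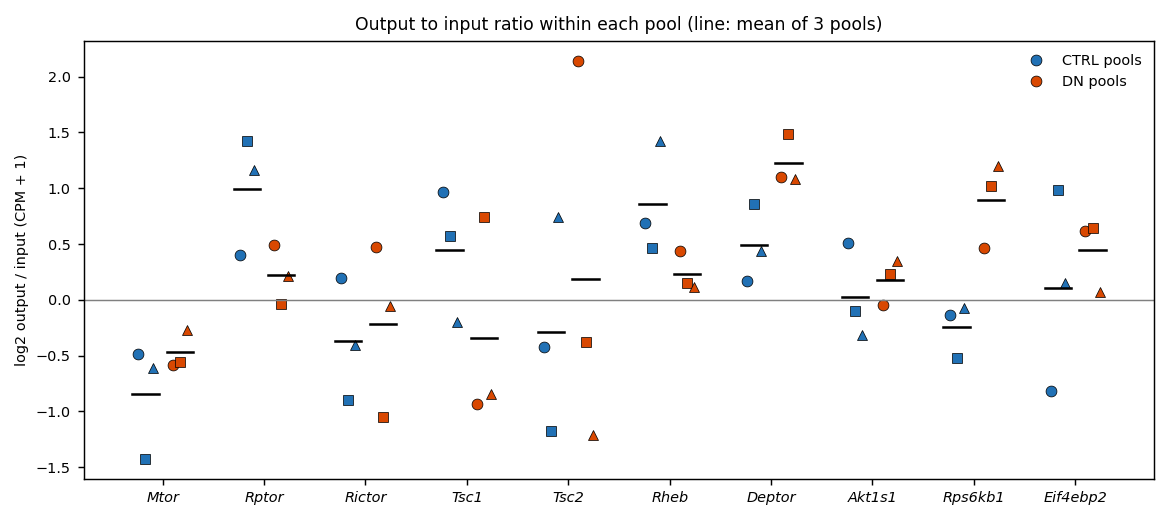
Log2 ratio of output to input in each pool for the 10 members, with CTRL pools in blue, DN pools in orange and the mean of 3 pools as a line. On this scale, relative to the median gene, Mtor lies below 0 and Deptor and Rheb above 0 in all 6 pools, whereas Rps6kb1 is below 0 in the CTRL pools and above 0 in the DN pools.

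In CTRL animals no member passed the adjusted edgeR test of output against input, but the kinase and 3 other members were apart between fractions. Of 9 members tested, 0 had an adjusted p below 0.05, against 3.20% of 13456 genes. At an unadjusted p below 0.05 there were 4 members, against 16.3% of genes, and the same 4 did not overlap between fractions, against 23.3% of genes. These were Mtor (-0.87 ± 0.29, adjusted p = 0.147 by edgeR), Rptor (1.04 ± 0.39, adjusted p = 0.200), Rheb (0.88 ± 0.26, adjusted p = 0.0990) and Deptor (0.45 ± 0.19, adjusted p = 0.273). DESeq2 called 2 of them, Mtor (adjusted p = 0.0377) and Rheb (adjusted p = 0.0239), in a test that called 8.99% of genes. The range of adjusted p over the alternatives was 0.0377 to 0.552 for Mtor and 0.0239 to 0.389 for Rheb. The median of the members was 0.20, beside 0.02 over all genes. Tsc1 (0.43 ± 0.29), Eif4ebp2 (0.20 ± 0.42), Rps6kb1 (-0.25 ± 0.29), Tsc2 (-0.29 ± 0.57) and Rictor (-0.42 ± 0.24) overlapped between fractions.

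In DN animals Deptor was the member that passed. It rose from 51.4 ± 4.20 CPM in inputs to 122 ± 24.0 CPM in outputs (SD, n = 3). Its log2 fold change was 1.22 ± 0.23 (SE; interval 0.72 to 1.72; adjusted p = 0.0125 by edgeR). With the pool as a block the adjusted p was 0.0170. The call ended without any 1 of the 3 DN pools (adjusted p = 0.0589 without pool 1, 0.128 without pool 2 and 0.116 without pool 3, with a lowest log2 fold change of 1.07), and the adjusted p over all alternatives was 5.36e-05 to 0.128. Of 9 members tested 1 passed, against 3.38% of 13041 genes, and by DESeq2 also 1, against 8.91%. At an unadjusted p below 0.05 there were 2 members, against 15.7% of genes. The same 2 did not overlap between fractions, against 22.7% of genes.

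The other member of that pair was Rps6kb1, with 35.7, 37.2 and 23.3 CPM in DN inputs and 49.6, 76.6 and 54.7 CPM in DN outputs. All 3 outputs lay above all 3 inputs (0.88 ± 0.31, adjusted p = 0.169 by edgeR, 0.0742 to 0.466 over the alternatives). Mtor had 51.1, 35.6 and 46.9 CPM in DN inputs and 33.7, 23.9 and 38.8 CPM in DN outputs, with the highest output inside the input range (-0.50 ± 0.32, adjusted p = 0.513). Rheb and Rptor were at 0.20 ± 0.26 and 0.16 ± 0.37, and the other members tested at values from -0.37 (Rictor) to 0.50 (Eif4ebp2). The median of the 9 was 0.20, beside 0.0041 over all genes tested. Beside these results, 6 of 6 astrocyte markers had lower and 6 of 6 VMN markers higher fitted values in outputs in CTRL and in DN, and the part of cell make-up in the members' ratios was not tested.

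Whether the output to input effect differed between DN and CTRL was tested as an interaction over all 12 libraries. Of the 10 members 0 passed, against 0% of 15011 genes, while 2 had an unadjusted p below 0.05, against 6.22% of genes. These were Rps6kb1 (1.13 ± 0.42, unadjusted p 0.0163, adjusted p = 0.738 by edgeR) and Deptor (0.77 ± 0.29, unadjusted p 0.0176, adjusted p = 0.738). The adjusted p over the alternatives was 0.364 to 1 for Rps6kb1 and 0.376 to 1 for Deptor. DESeq2 called neither, in a test that called 0.674% of genes. In the pools the ratios of Rps6kb1 were -0.13, -0.53 and -0.08 in CTRL and 0.46, 1.02 and 1.20 in DN. For 3 members, Rps6kb1, Deptor and Rheb, the DN and CTRL ratios did not overlap, against 9.97% of all genes. Rps6kb1 and Deptor had higher ratios in DN and Rheb lower ones (-0.68 ± 0.36, adjusted p = 0.835 by edgeR). The interaction shares its libraries with the 4 comparisons above and is no further evidence for them. For Deptor the gap came with lower DN inputs (-0.67, beside 0.09 in outputs). For Rheb it came with higher DN inputs (0.71, beside 0.03 in outputs). For Rps6kb1 it came with higher DN outputs (0.77), beside -0.36 in inputs.

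The intervals of the remaining members in the interaction included 0. Rptor was at -0.88 ± 0.54, Tsc1 at -0.72 ± 0.50, Mtor at 0.37 ± 0.42, Eif4ebp2 at 0.29 ± 0.65 and Rictor at 0.06 ± 0.46. Tsc2 at 0.77 ± 0.92 became -0.59 without DN pool 1. The interval of Akt1s1 ran from -4.25 to 6.83 and set no useful limit.

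Paralogs of the effectors and other genes of the pathway were read from 7 lists with 83 matched genes. Of the eIF4E-binding protein genes, Eif4ebp2 had the highest CPM. Eif4ebp1 had group means of 0.0185 to 0.195 CPM, and Eif4ebp3 had 0 counts in all 12 libraries, which allows up to 3 counts in each. Likewise Rps6kb2, the second S6 kinase gene, had group means of 0.0716 to 0.467 CPM, against 32.03 to 60.3 CPM for Rps6kb1. These values are not per kilobase of exon. In total 6 of the 83 pathway genes stayed under a mean of 1 CPM in every group, which were Lamtor4, Castor1, Tfeb and these 3 paralogs. Rps6, which encodes ribosomal protein S6, also had low group means, of 0.730 to 1.64 CPM. Whether such low counts reflect little RNA or loss in amplification or counting was not tested.

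Tbc1d7, the third subunit of the TSC complex, was the pathway gene that passed a test. It had 2.66, 2.77 and 4.28 CPM in DN inputs and 18.3, 23.9 and 13.7 CPM in DN outputs, fully apart (2.49 ± 0.58, adjusted p = 0.0374 by edgeR). The call ended with the pool as a block (adjusted p = 0.0764) and without any 1 of the 3 DN pools (0.154 to 0.233), and the range over the alternatives was 2.06e-04 to 0.233. In CTRL it had 2.77, 3.49 and 3.37 CPM in inputs and 7.56, 1.94 and 6.77 in outputs, which overlapped (0.73 ± 0.70). Between DN and CTRL outputs it was at 1.78 ± 0.59 with adjusted p = 0.910, and the interaction was 1.76 ± 0.82 with adjusted p = 0.796, so the difference between the groups did not pass. Tsc1 and Tsc2, its partners, were at -0.29 ± 0.41 and 0.47 ± 0.66 in DN outputs against inputs.

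**Figure D5:**
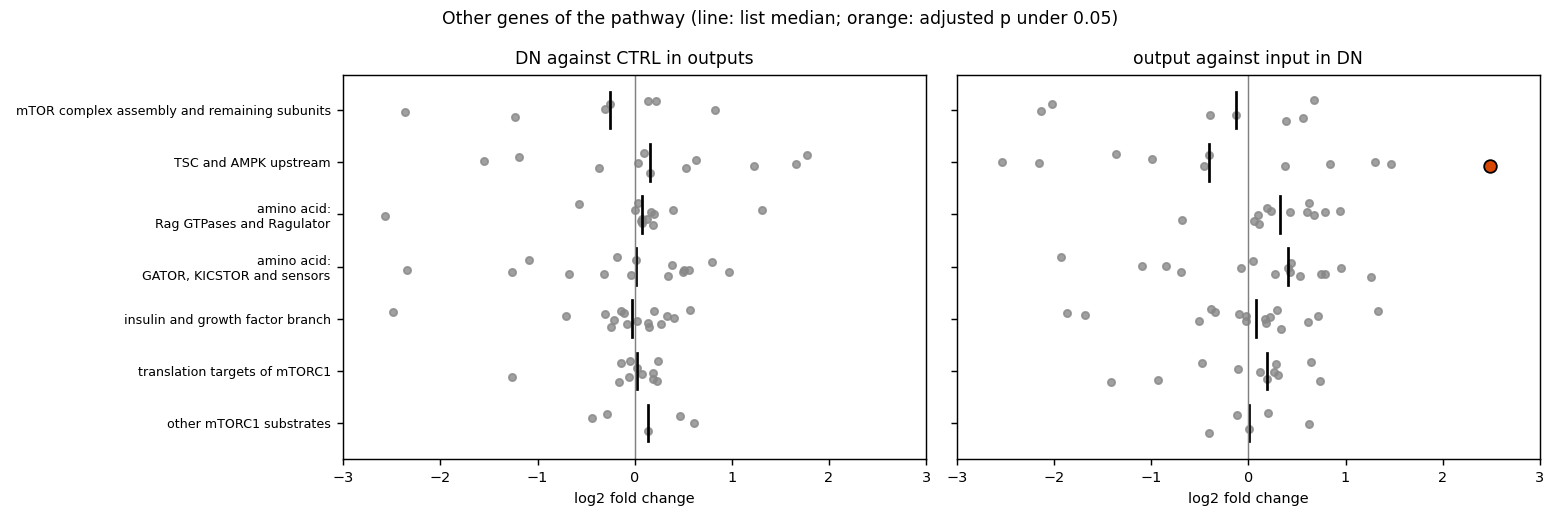
Log2 fold changes of the other pathway genes by list, for DN against CTRL in outputs (left) and output against input in DN (right), with the list median as a line. Tbc1d7, at 2.49 in the right panel, is the gene drawn in orange, and no gene passed in the left panel.

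Between DN and CTRL outputs 0 of the 78 pathway genes tested passed, 47 were positive and 31 negative, and their median was 0.07. In inputs 0 of 79 passed, 35 were positive and 44 negative, with a median of -0.02. In outputs against inputs, 0 of 78 passed in CTRL (median 0.09) and 1 of 77 in DN (median 0.19), and in the interaction 0 of 82 (median 0.05). At an unadjusted p below 0.05 the numbers were 4, 0, 6, 11 and 4 in these 5 tests. Over all genes tested the shares at that level were 5.41%, 4.46%, 16.3%, 15.7% and 6.22%, and 3.20% and 3.38% were called in the fraction tests of CTRL and DN. The pathway counts lay at or below those shares in each test.

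The gene with the smallest p of each list between DN and CTRL outputs was Akt2 of the insulin branch (-2.49 ± 0.95), Seh1l of GATOR2 (0.97 ± 0.40), Tbc1d7, Atg13 of autophagy initiation (0.61 ± 0.36), Tti2 of mTOR assembly (0.83 ± 0.49), Eef2k, the kinase of elongation factor 2 (-1.27 ± 0.89), or Lamtor4 of Ragulator (-2.57 ± 2.06). Their adjusted p was 0.910 to 0.949 by edgeR. The value of Lamtor4 rested on CTRL pool 1 (2.06 CPM, against 0.282 and 0 in the other CTRL outputs) and was -0.11 without it, and that of Eef2k was -0.63 without CTRL pool 2. Akt2, a kinase that inhibits TSC2, had 5.23, 7.59 and 4.48 CPM in CTRL outputs and 0.296, 0.942 and 1.85 in DN outputs, without overlap (adjusted p = 0.911). Among AMPK genes, Prkaa2 had 86.1 ± 12.6 CPM in CTRL and 91.9 ± 19.4 CPM in DN outputs, which overlapped (0.09 ± 0.22). Prkag2, an AMPK gamma subunit chosen after its values were seen, had 4.17 ± 1.33 and 13.2 ± 1.63 CPM (1.66 ± 0.56, adjusted p = 0.910 by edgeR). The other AMPK subunit genes went in both directions between DN and CTRL outputs. Prkag1 was at -1.55 and Prkaa1 at -0.37, whereas Prkab1 was at 0.63 and Prkab2 at 0.03. Each of their intervals included 0.

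Finally, other protein-coding genes were ranked by how closely their profile over the 12 libraries followed that of a member. Likeness was the root mean square difference between profiles of log2 (CPM + 1), each centred on its own mean. Closest to Mtor were Syne1 (0.26), Chd9 (0.26) and Nipsnap3b (0.27), where the median of 13428 genes was 0.73. Closest to Tsc2, the member with the largest SD on that scale, were Zfp119a (0.35), C8g (0.40) and Srm (0.40), with a median of 0.93. The libraries share depth and composition, so these values are descriptions.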

How the data were processed

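Counts of reads per Ensembl gene were deposited by the authors without normalization, as 1 file per library. The submitters' processing notes list HTSeq 0.6.1, STAR 2.4.2a, cutadapt 1.3 and build GRCm38; for annotation release and strand setting, nothing is given in the sources used here. Per the labels, all RNA was amplified (NuGEN Ovation V2). The 5 classes of reads without a gene (16.1 to 26.1% of all entries) were left out. Symbols, positions and exon lengths came from GENCODE M21, which held 98.9% of identifiers.

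Genes were tested with edgeR 4.0.16 (R 4.3.3; quasi-likelihood, two-sided, TMM scaling, filterByExpr with minimum count 10 and total 15, Benjamini-Hochberg over all genes tested, threshold 0.05). Levels are CPM with TMM factors over 12 libraries; pool ratios used CPM + 1. The tests were also run on simulated counts with known changes, and the outcome is not reported here. Members and lists were chosen with earlier results of these data known. Named pathway genes were those past the threshold in any test and the smallest p of each list in outputs. Prkaa1, Prkaa2, Prkab1, Prkab2, Prkag1, Prkag2, Rps6, Castor1, Tfeb, Rps6kb2, Eif4ebp1 and Eif4ebp3 were added after their values were seen. These added genes were not run through the alternatives. The 3 closest profiles were taken for Mtor and for the member with the largest SD of log2 (CPM + 1). One gene of 84 listed had no match.

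Input and output of a number come from 1 pool, per the series design. Across genes, their departures from their group means had correlations of 0.029 to 0.143 in CTRL and 0.007 to 0.024 in DN. DN and CTRL libraries of a number are different animals. Alternatives were DESeq2 1.42.0, RLE and upper quartile scaling, no filter, no mitochondrial genes, a block, a joint fit of the 12 libraries and omission of single replicates; for ratios, pseudocounts of 0.5 and 5 CPM and other scalings. Without molecular identifiers, limits cover counting error only.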

Additional observations from a re-analysis of the deposited data

Results flagged for a closer look

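Rps6kb1 drew attention because, relative to the median gene, its output to input ratio lay below 0 in all 3 CTRL pools and above 0 in all 3 DN pools, with a difference of mean log2 ratios of 1.14 (DN minus CTRL). The interaction test of that difference by edgeR did not pass (adjusted p = 0.738). Of all genes, 19.6% were below 0 in all 3 CTRL pools and 18.2% were above 0 in all 3 DN pools. These are separate shares, and the share of genes that met both conditions at once was not computed. The ratios of Rps6kb1 in CTRL pools 1 and 3 were close to 0 (-0.13 and -0.08). Without TMM factors its mean ratio was above 0 in both groups, at 1.22 in CTRL and 2.45 in DN.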

How the results depend on the processing

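Of 683 fitted values of named genes under the alternatives, 644 kept direction and side of the threshold, 7 lost a call and 3 gained one; 29 changed sign, all of them called in neither setting. The number of members called was 2 with DESeq2 and 1 with no filter for CTRL outputs against inputs (0 as reported), and 0 without each replicate for DN (1 as reported). Genes called over the whole table moved with DESeq2 to 58 in outputs, 2 in inputs, 1172 and 1124 in the fraction tests of CTRL and DN, and 99 in the interaction. With no filter they moved to 39 in inputs, 903 in CTRL, 976 in DN and 54 in the interaction, and with 1 fit of 12 libraries to 673 in DN. The 1 gene called in inputs was lost (0) with RLE or upper quartile scaling, without mitochondrial genes, with the replicate block and in 1 fit of 12 libraries. Leaving out 1 replicate gave 0 to 8 genes in inputs, 45 to 214 in CTRL and 115 to 148 in DN. The median log2 ratio of the members, averaged over the pools, came to 0.19 with the scaling used, 1.60 without TMM factors and 0.036 with CPM of nuclear genes alone, by which the median gene moved by 1.10 and -0.13.

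Signs changed without 1 replicate as follows, given as lowest to highest log2 fold change. In outputs of DN against CTRL they were Akt1s1 -1.49 to 2.35 (1.18 with the replicate block), Rptor -0.50 to 0.15, Rheb -0.15 to 0.25, Eif4ebp2 -0.67 to 0.11, Tsc2 -0.25 to 1.47 and Deptor -0.066 to 0.22. In inputs they were Tsc2 -0.20 to 0.58, Mtor -0.18 to 0.075 and Tbc1d7 -0.24 to 0.14 (-0.042 with upper quartile scaling and -0.011 with the replicate block). In CTRL fractions they were Tsc2 -1.04 to 0.37 and Eif4ebp2 -0.24 to 0.54, and in DN Tsc1 -0.95 to 0.039, Tsc2 -0.88 to 1.13 and Rictor -0.71 to 0.20. In the interaction they were Eif4ebp2 -0.048 to 0.75, Rictor -0.29 to 0.62 and Tsc2 -0.59 to 1.53. The cause was not tested beyond the samples left out. With the pool as a block, the 1 call of a named gene that changed was Tbc1d7 in DN (adjusted p = 0.0764 by edgeR), and the block changed no call of a member. Between DN and CTRL the block joins unrelated animals, with correlations of -0.017 to 0.012. Counts of Akt1s1 were too low to limit its change.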

Other observations

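Akt1s1, the member with at most 74 counts in any library, has a longest transcript of 60.7% G and C, above 97.1% of the protein-coding genes tested, whose median was 49.3%. The corresponding value was 39.2% for Rps6kb1 and 44.3% for Deptor. The part of base composition in these levels was not tested.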
